A study of Peromyscus maniculatus with 16 samples.

Results

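The genes described here are 51 genes of the extracellular matrix and of hepatic stellate cells, listed by symbol with earlier results of these data known. They comprise collagens, laminins and other matrix proteins, enzymes that cross-link or degrade matrix, contractile and filament proteins, stellate cell markers, and ligands and receptors of the TGF-beta family. The count table held 16910 genes, 49 of the listed genes among them; Fbn1 and Ctgf were not analysed here under these symbols. Genes with at least 0.5 CPM (read counts scaled to library size) in at least 1 animal were tested, which kept 48 of the 49. Col15a1, a collagen of basement membrane zones, had 0 to 5 counts per animal and was not tested. Of the 48 genes tested, 47 reached that level in at least 1 C animal, 47 in at least 1 NS animal, 0 in S alone, and 38 in all 16 animals.

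RNA was sequenced from the livers of 16 outbred deer mice (Peromyscus maniculatus), each a separate animal of 10 months of age. The C group (n = 6) received regular chow, and the other 10 animals received a high fat diet (HFD, 58% of energy from fat, with sucrose) for 28 weeks. After HFD, 5 livers had steatosis (S) and 5 did not (NS), and the comparisons ask how livers with and without fat accumulation on the same diet differ from livers on chow and from each other. Total counts per animal lay between 4640733 and 11349971. The C group held 5 males of the BW stock (P. m. bairdii, a closed colony) and 1 male of the SM2 stock (P. m. sonoriensis), animal 10876. NS held 4 BW males and 1 SM2 male, animal 10865. S held 1 BW male, animal 36016, 3 BW females, animals 35955, 35982 and 35990, and 1 SM2 male, animal 10880. All 3 females were in S, so sex and steatosis cannot be told apart in most S animals.

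Hepatic stellate cells lie between hepatocytes and the sinusoidal endothelium, where they store vitamin A as retinyl esters and maintain a loose matrix rich in type IV collagen, laminin and proteoglycans. On injury they can become myofibroblasts, which express smooth muscle actin, secrete fibrillar collagens I and III with the enzymes that cross-link them, and respond to TGF-beta and platelet-derived growth factors. Portal fibroblasts, vascular smooth muscle, endothelium and, for fibronectin and some collagens, hepatocytes are further sources of matrix RNA in whole liver. In such bulk RNA, fewer cells of a type and less RNA per cell cannot be told apart.

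The library of S animal 36016 stood apart from the other 15. In it, 108 genes reached at least 5 CPM and at least 5 times a reference, the highest value among the other 15 libraries plus 0.5 CPM. Of these, 55 reached at least 10 times the reference. In each other library 0 to 10 genes reached at least 5 times by the same rule, with 10 in S animal 35990, 8 in C animal 10876 and 6 in S animal 10880. These 108 genes took 1.46% of the counts of 36016 and 0.0251 to 0.0668% of those of the other libraries. Of the matrix and stellate genes, 8 were among the 108 and 16 of the 48 tested had at least 2 times the highest other value, against 0 in any other library. Over all genes tested the share at that level was 4.13% in 36016 and 0.0158 to 1.81% in the other libraries. The total count of 36016, 4640733, was the lowest of the 16.

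Among the 108 genes, some chosen by hand for what is known of them are described here, and no enrichment was tested. Acta1, the actin of skeletal muscle, had 118 CPM in 36016 and at most 0.882 elsewhere. Tpm2, a muscle tropomyosin, had 759 CPM against at most 11.9, and Cav1, the main protein of caveolae, 237 against at most 2.29. The mesenchymal transcription factors Twist2 and Prrx1 had 59.1 and 38.3 CPM, with at most 0.380 and 0.510 in the other libraries. Hoxc10, Hoxa11 and Pitx1, transcription factors known from the development of the hindlimb, had 34.0, 14.3 and 10.3 CPM and at most 0.474, 0.190 and 0.121 elsewhere. Fap, a protease of activated fibroblasts, had 36.4 CPM against at most 0.722, and Cdh11, a cadherin of mesenchymal cells, 33.2 against at most 0.510. Genes of other kinds were as far apart, such as the potassium channel Kcnma1, the oxytocin receptor Oxtr and the glutamate receptor subunit Gria3, with 51.8, 32.3 and 26.1 CPM against at most 0.487, 0.277 and 0.383.

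Marker lists of other cell types gave the following sums in 36016. Skeletal muscle markers (10 of 10 in the table, most abundant Acta1) summed to 119 CPM against 0.371 to 5.05 in the other 15 animals, and without Acta1 to 0.375 against 0.252 to 4.67; Ckm, Myh1, Myh4, Tnnt3, Tnni2, Pvalb and Mb were at 0 in 36016. Vascular smooth muscle markers (9 of 10, most abundant Smtn) summed to 70.0 CPM against at most 45.0, and without Smtn to 25.2 against at most 24.1, with Ldb3, Pln and Casq2 at 0. Portal fibroblast and mesothelial markers (14 of 15, most abundant Dpp4) summed to 232 CPM against 143 to 313, with Clec3b and Upk1b at 0. Without Dpp4 that list summed to 62.7 CPM in 36016 and to 12.4 to 39.6 in the others, with Fbln1 at 38.9 against at most 1.72. Of its 14 markers, 2 were highest in 36016. Proliferation markers (8 of 10, most abundant Top2a) reached 59.1 CPM in 36016 and 38.6 in S animal 35990, against 2.52 to 7.93 in the remaining animals; without Top2a the sums of 36016 and 35990 were 23.3 and 31.3. Hepatocyte markers (14 of 18, most abundant Cyp2e1) summed to 84440.4 CPM in 36016, inside the range of the other 15, 76538 to 140321. The part of such cells in the values of the matrix genes was not tested.

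S animal 35990 differed from the others in a different set of markers. Its macrophage markers (13 of 18 in the table, most abundant Marco) summed to 1220.2 CPM, against 213 to 658 in the other 15 animals, and 10 of the 13 were highest there. Trem2 and Gpnmb, genes of lipid-associated macrophages, had 2.1 and 8.20 CPM in 35990 and were at 0 in 36016. Its cholangiocyte markers (9 of 11, most abundant Cldn4) and lymphocyte markers (10 of 14, most abundant Ptprc) summed to 86.5 and 48.7 CPM, with at most 53.3 and 26.0 elsewhere. Without Cldn4 and Ptprc these sums were 67.8 and 15.2 CPM, with at most 33.9 and 11.7 elsewhere. In each of these lists 4 markers were highest in 35990. Spp1 (25.7 CPM), which is also on the macrophage list, and Cldn7 (19.9) were among them, while Sox9 (0.381) had its lowest value there. The hepatocyte sum of 35990, 76538 CPM, was the lowest. Because these libraries stood apart, fold changes of S are given with all animals and without 36016, and some also without 36016 and 35990; leaving out both was chosen after seeing the data.

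**Figure D1:**
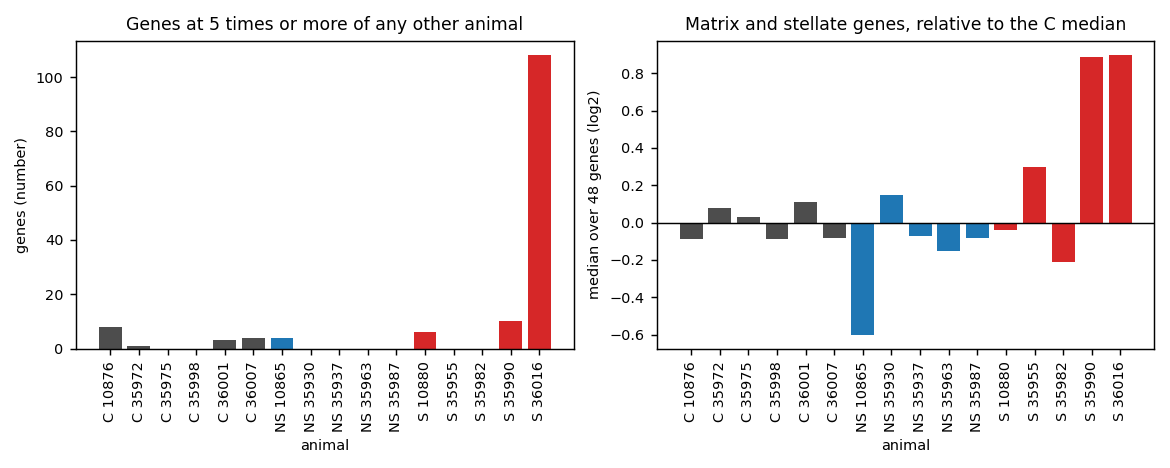
Bars give, for each animal (C grey, NS blue, S red), the number of genes at 5 times or more of the highest of the other 15 animals (left) and the median over the 48 genes tested of the log2 difference from the C median (right). Animal 36016 has 108 such genes, and animals 36016 and 35990 have the highest medians, 0.90 and 0.89.

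Relative to the median of C, the median over the 48 genes was 0.90 (log2) in 36016 and 0.89 in 35990. In the remaining S animals it was 0.30 in 35955, -0.04 in 10880 and -0.21 in 35982. Among NS animals it lay between -0.15 and 0.15 in the BW animals and at -0.60 in the SM2 animal 10865, and in C between -0.09 and 0.11. Over all 12639 genes tested the median was between 0.00 and 0.04 in each animal. Of the 48 genes, 23 had their highest value of all animals in 36016, 14 in 35990 and 3 in the other S animals together, against 15.9% of all genes in 36016 and 9.57% in 35990. In 10880, 35955 and 35982 the shares of all genes were 9.05, 3.32 and 6.28%. At 2-fold or more under the C median were 8 of the 48 in 10880 and 5 in 35982, against 6.65 and 5.15% of all genes, and at most 3 in any C animal. In NS animal 10865, 16 of the 48 were that far below C, against 7.88% of all genes, and 16 had their lowest value, against 10.3%. So 2 of 5 steatotic livers carried most of the high values, and of the other 3, 35955 lay above and 35982 below the range of the chow medians.

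Animals of a group differed in these genes by different amounts. Over the 41 genes with a C median of at least 1 CPM, the highest value divided by the lowest had a median of 2.27 in C, 2.51 in NS and 4.34 in S, and of 2.82 in S without 36016. Over the 9932 genes of the whole table with such a C median it was 1.83 in C, 1.85 in NS, 1.98 in S and 1.72 in S without 36016. In C it ran from 1.27 for Col4a1, a chain of basement membrane collagen, to 124 for Col5a3, a chain of type V collagen. The value for Col5a3 rested on the SM2 animal 10876; in the BW animals of C it was 3.15, and the highest there was 5.63, for Acta2.

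**Figure D2:**
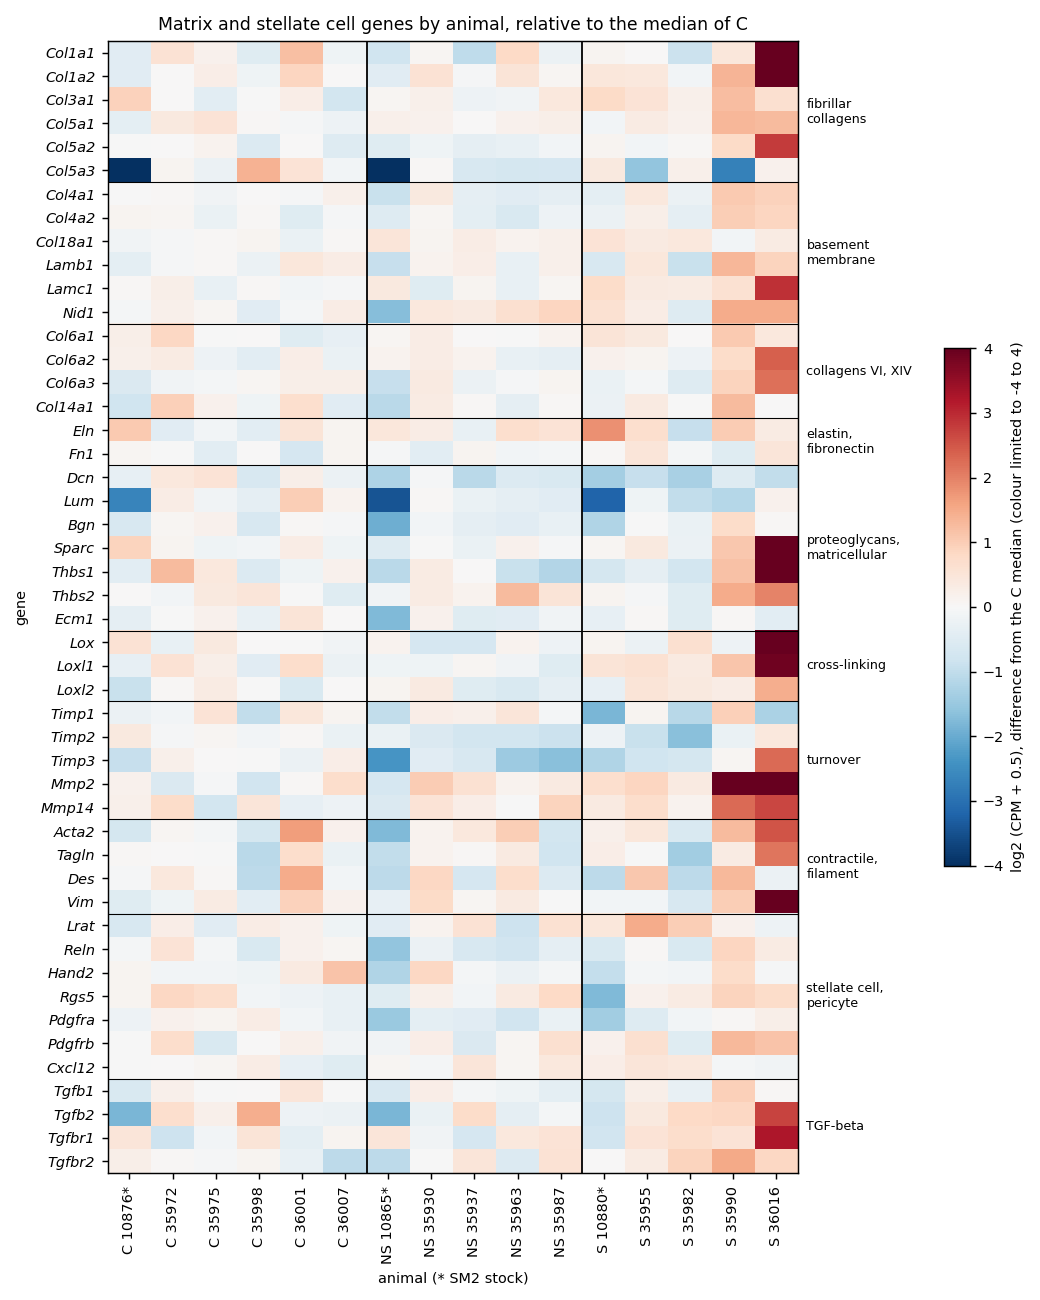
Each cell shows log2 of CPM + 0.5 for 1 gene and 1 animal as the difference from the median of C, red above and blue below, with colour limited to -4 and 4; genes are ordered by role and SM2 animals carry an asterisk. The last column, S animal 36016, is dark red for Col1a1, Col1a2, Sparc, Thbs1, Lox, Loxl1, Mmp2 and Vim, and the column of S animal 35990 is pale red for most genes and dark red for Mmp2.

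Tests came from 1 quasi-likelihood fit in edgeR to all 16 animals. A gene was called where its p-value, adjusted by Benjamini and Hochberg's method over the 12639 genes tested, was under 0.1 and its fold change was at least 2. In S vs C, 11 of the 48 genes were called higher: Col1a1, Col1a2, Col5a2, Lamc1, Sparc, Thbs1, Lox, Loxl1, Mmp2, Mmp14 and Vim. Over all genes 3.09% were called higher. Dcn, encoding the proteoglycan decorin, was the 1 gene of the 48 called lower, against 0.965% of all genes. The median log2 fold change was 0.66 over the 48 genes and 0.10 over all genes, and 40 of the 48 were above 0. DESeq2 called 7 higher (Col5a2, Col6a2, Mmp2, Mmp14, Sparc, Tgfbr1 and Tgfbr2) and 1 lower (Dcn), against 3.20 and 1.16% of all genes; it gave no p-value for 7 genes with an extreme count, Col1a1, Col1a2, Thbs1, Vim, Lox, Loxl1 and Lamc1. With sex as a covariate edgeR called 15 higher and 2 lower, against 4.73 and 1.35% of all genes, and in males alone the same numbers, against 4.27 and 1.16%. Of the genes called there, Col6a2, Col6a3, Tagln and Tgfbr1 (higher) and Timp1 (lower) were not called in the fit without sex. The males of S are 36016 and 10880, and both settings took the S effect from them, since all females were in S.

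Without S animal 36016, Mmp2 alone was called higher and Dcn alone lower, against 1.35 and 0.620% of the 12412 genes then tested, and the median over the 48 genes was 0.24. Without 36016 and 35990, 0 genes of the 48 were called higher by edgeR and Dcn alone lower, against 0.993 and 0.562% of 12287 genes, and the median was -0.07, with 21 of 48 above 0. At an unadjusted p under 0.05, 4 were then higher and 3 lower, against 9.38 and 9.04% of those genes. With all animals 19 were higher and 1 lower at that level, against 13.1 and 10.7% of all genes. Without 36016 alone, 7 were higher and 2 lower, against 10.8 and 9.65%. The number called higher also moved with single chow animals. It was 3 without C animal 35975, 5 without 36001 and 3 without 36007, where 1.20, 1.32 and 1.01% of all genes were called higher.

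In NS vs C, 0 of the 48 genes were called by edgeR and 0 by DESeq2, which gave no adjusted p for 9 of them, against 0.0712 and 0.419% of all genes. At an unadjusted p under 0.05, 1 was higher (Col18a1) and 4 were lower (Dcn, Timp2, Reln and Pdgfra), against 5.32 and 2.97% of all genes. The median log2 fold change was -0.14 over the 48 genes and 0.01 over all, and 17 of the 48 were above 0. These values and those of S vs C share the 6 chow animals.

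In S vs NS, which compares livers with and without steatosis on the same diet, 0 of the 48 genes were called by edgeR, against 0.00791% of all genes. At an unadjusted p under 0.05, 22 were higher and 0 lower, against 6.19 and 4.74% of all genes. Without 36016, 9 were higher at that level, against 4.00%, and without 36016 and 35990 2 were higher and 0 lower, against 2.91 and 2.71%. The median log2 fold change was 0.70 over the 48 genes and 0.04 over all, with 44 of 48 above 0; it was 0.44 without 36016 and 0.14 without 36016 and 35990. DESeq2 called 4 higher (Col5a2, Mmp2, Sparc and Timp3), against 0.404% of all genes, and gave no adjusted p for 9 of the 48. With sex as a covariate and in males alone, edgeR called 12 of the 48 higher, against 1.42 and 1.18% of all genes.

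**Figure D3:**
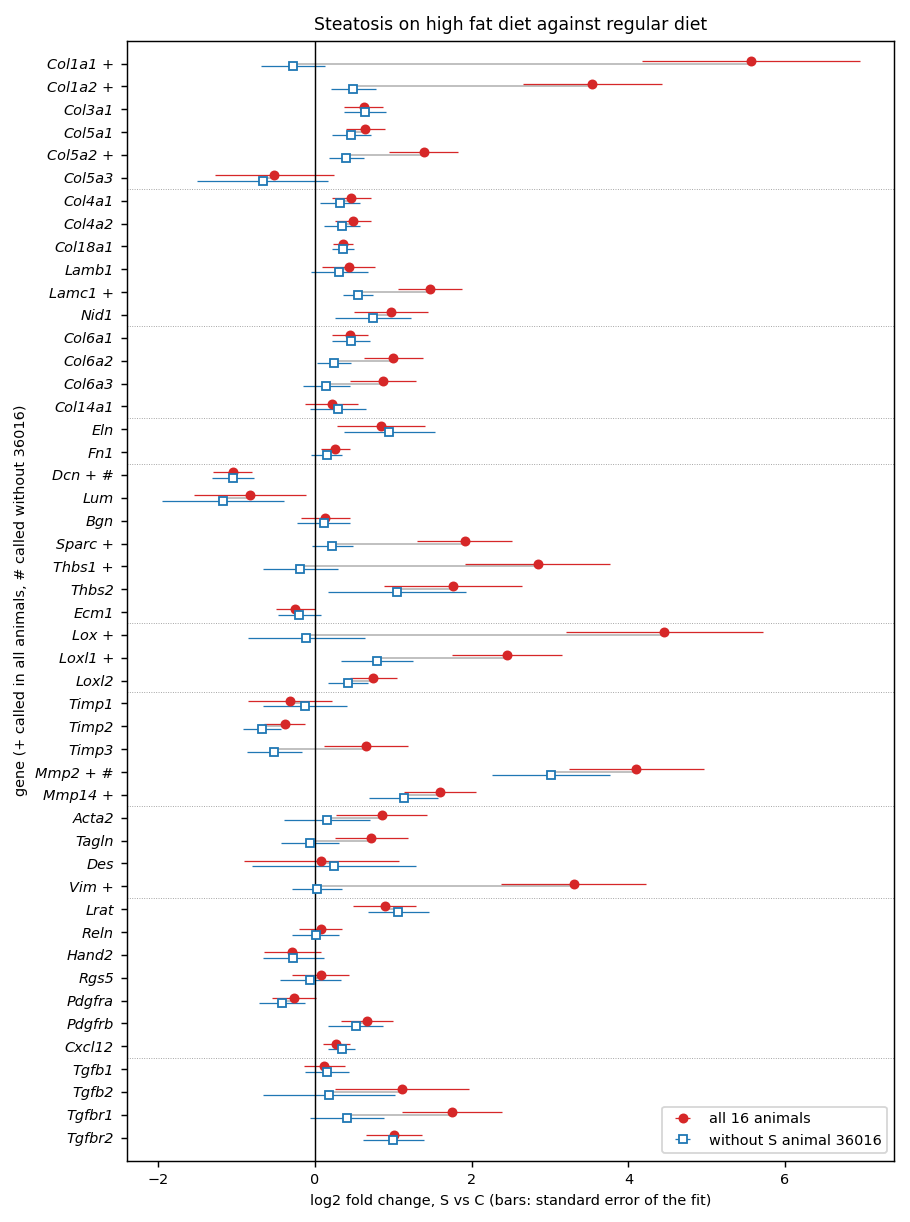
Points give the log2 fold change of each gene in S vs C with all 16 animals (red) and without S animal 36016 (blue open squares), with bars for the standard error of the fit; + marks genes called with all animals and # those called without 36016. Col1a1, Col1a2, Thbs1, Lox and Vim move to between -0.28 and 0.49 without 36016, while Mmp2 and Dcn carry both marks.

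Fibrillar collagens form the tensile fibres of scar and portal tracts. Of the 6 tested, 3 were called higher in S vs C with all animals and 0 without 36016. Beside this and the counts by role in S vs C below, 3.09% of all genes were called higher and 0.965% lower. Without 36016 these shares were 1.35 and 0.620%. Col1a1, the alpha 1 chain of type I collagen, lay between 5.00 and 17.0 CPM in C (median 7.20), at 3.26, 3.91, 5.92, 7.64 and 12.8 in NS, and at 3.71, 7.24, 7.67, 10.0 and 2057 in S. The value of 2057 was that of 36016; the other S animals lay among the C and NS animals. The edgeR log2 fold change in S vs C was 5.56 (SE 1.39, edgeR adjusted p = 0.0397), and without 36016 it was -0.28 (SE 0.41, edgeR adjusted p = 0.736). Col1a2, the partner chain of the same fibre, lay between 13.2 and 33.4 CPM in C (median 18.1), at 13.1, 17.4, 19.3, 26.3 and 27.2 in NS, and at 16.7, 24.2, 25.1, 47.0 and 1059 in S. Animal 36016 was again far above the rest, 35990 was above all C and NS animals, and the other S animals overlapped both groups. S vs C gave a log2 fold change of 3.54 (SE 0.89, edgeR adjusted p = 0.0405) with all animals and 0.49 (SE 0.29, edgeR adjusted p = 0.352) without 36016.

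Type III collagen was not among the genes high in 36016. Col3a1, its only chain, lay between 32.2 and 103 CPM in C (median 54.5), at 47.6, 49.2, 58.0, 62.2 and 73.8 in NS, and at 63.4, 79.6, 84.8, 92.2 and 129 in S. The highest value was that of 35990, 36016 had the middle value of S, and the chow animal 10876 was above 4 of the 5 S animals. For S vs C, the log2 fold change was 0.62 (SE 0.25, edgeR adjusted p = 0.141) and without 36016 it was 0.64 (SE 0.27, edgeR adjusted p = 0.200). Col5a2, a chain of the type V collagen that starts type I fibres, lay between 5.63 and 9.57 CPM in C (median 8.55), at 5.92, 6.51, 6.89, 7.52 and 7.90 in NS, and at 7.93, 8.89, 9.26, 15.0 and 61.9 in S. All 5 S animals were above the NS animals, by little in 3 of them, and 3 lay inside the range of C. Its log2 fold change in S vs C, 1.39 (SE 0.44, edgeR adjusted p = 0.0770), was 0.40 (SE 0.22, edgeR adjusted p = 0.307) without 36016. The call was also lost without any 1 of the 6 chow animals, at log2 fold changes of 1.31 to 1.45. Col5a1, the other common type V chain, lay between 10.5 and 20.7 CPM in C and reached 35.5 in 35990 and 34.3 in 36016. Col5a3, the third chain, ranged from 0.886 to 110.2 CPM in C, and its low values were those of SM2 animals 10876 (0.886) and 10865 (1.76) and of 35990 (5.91) and 35955 (13.5); the third SM2 animal, 10880, had 54.8.

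Basement membrane genes encode the sheet-like matrix under epithelium and endothelium, and 1 of the 6 tested was called in S vs C, 0 without 36016. Col4a1, a chain of the type IV collagen network, lay between 41.6 and 52.8 CPM in C (median 45.8), at 24.6, 33.2, 35.4, 35.5 and 60.9 in NS, and at 34.7, 38.7, 61.6, 87.5 and 95.0 in S. The animals 35955, 36016 and 35990 were above all C animals, the other S animals below all of them, and 4 of 5 NS animals were also below C. The log2 fold change was 0.46 (SE 0.25, edgeR adjusted p = 0.273) in S vs C and 0.74 (SE 0.27, edgeR adjusted p = 0.368) in S vs NS; without 36016 these were 0.32 (SE 0.26) and 0.61 (SE 0.27). Col4a2, which forms the same network, followed with 25.4 to 66.3 CPM in S and a log2 fold change of 0.49 (SE 0.23) in S vs C, or 0.34 (SE 0.23) without 36016.

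Lamc1 encodes the laminin gamma 1 chain of most laminins. It lay between 6.52 and 9.68 CPM in C (median 8.10), at 5.70, 6.50, 8.59, 8.68 and 10.7 in NS, and at 10.4, 10.5, 12.5, 13.8 and 65.3 in S. All 5 S animals were above all C animals, 4 of them by small amounts, and the SM2 animal 10865 of NS was inside the range of S. In S vs C the log2 fold change was 1.47 (SE 0.41, edgeR adjusted p = 0.0552), and without 36016 it was 0.55 (SE 0.19, edgeR adjusted p = 0.135). The call was also lost without 35975, 36001 or 36007 of C, at log2 fold changes of 1.41, 1.45 and 1.46. Among the others, Lamb1, a laminin beta chain, reached 41.4 CPM in 35990 and 30.0 in 36016 against at most 22.1 in C, and Nid1, which links laminin to type IV collagen, 7.44 and 7.51 against at most 2.99. Col18a1, the source of endostatin and a collagen that hepatocytes also express, lay between 910.0 and 1159 CPM in C, 1162 and 1520.4 in NS, and 998 and 1568 in S. NS lay wholly above C for Col18a1, narrowly, with a log2 fold change of 0.29 (SE 0.13, edgeR adjusted p = 0.594).

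Of the genes of type VI and XIV collagen, 0 of 4 were called in S vs C by edgeR, with log2 fold changes from 0.21 to 1.00, or 0.14 to 0.46 without 36016. With all animals 1 was higher at an unadjusted p under 0.05, against 13.1% of all genes, and DESeq2 called Col6a2. With sex as a covariate and in males alone edgeR called Col6a2 and Col6a3. Type VI collagen forms beaded filaments around cells. Col6a2 had 69.4 CPM and Col6a3 39.4 in 36016, with at most 21.7 and 15.6 in the other animals, both in 35990, whereas Col6a1 had 13.5 in 36016 and 6.93 to 20.7 elsewhere. For Col6a2 the log2 fold change in S vs C was 1.00 (SE 0.38) with all animals and 0.24 (SE 0.22) without 36016.

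Fibronectin and elastin were not called in the group comparisons. Fn1, fibronectin, which hepatocytes secrete into plasma and which also forms matrix fibrils, lay between 1385 and 2381 CPM in C (median 2209), at 1631, 2047, 2075, 2149.8 and 2381 in NS, and at 1576, 2080.2, 2292, 3069.6 and 3117 in S. Animals 35955 and 36016 were above all others and 35990 was near the low end, so the groups overlapped. This gave a log2 fold change in S vs C of 0.26 (SE 0.19, edgeR adjusted p = 0.418), and of 0.15 (SE 0.20) without 36016. Eln, elastin, had at most 33 counts in any animal.

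Small leucine-rich proteoglycans bind collagen fibrils and growth factors, and matricellular proteins modulate how cells adhere to matrix; 2 of the 7 such genes tested were called higher and 1 lower in S vs C, 0 and 1 without 36016. Dcn, decorin, which binds type I collagen and TGF-beta, lay between 171 and 389 CPM in C (median 268), at 112, 125, 175, 181 and 257 in NS, and at 103, 108, 135, 139.5 and 184 in S. Of the S animals 4 were below all C animals, and 35990 was below 5 of the 6. The edgeR log2 fold change in S vs C was -1.05 (SE 0.25, edgeR adjusted p = 0.0354), without 36016 -1.05 (SE 0.27, edgeR adjusted p = 0.0683), and without 36016 and 35990 -1.24 (SE 0.29, edgeR adjusted p = 0.0624). The value lay close to the fold limit: without C animal 35972 or 35975 it was -0.96 and -0.93, without S animal 10880 or 35982 it was -0.96 and -0.98, and the call was lost. In NS vs C the log2 fold change of Dcn was -0.70 (SE 0.25, edgeR adjusted p = 0.511), and in S vs NS -0.34 (SE 0.26, edgeR adjusted p = 0.632), or -0.33 (SE 0.27) without 36016.

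Lum, lumican, a regulator of collagen fibril width, lay between 0.590 and 13 CPM in C (median 6.34), at 0.126, 4.44, 4.85, 5.15 and 6.55 in NS, and at 0.244, 2.57, 2.96, 5.58 and 7.13 in S. The lowest value of each group was that of its SM2 animal, and the BW animals of the groups overlapped. Bgn, biglycan, a relative of decorin, lay between 55.0 and 98.2 CPM in C (median 86.6), at 21.8, 62.7, 67.8, 70.1 and 81.0 in NS, and at 37.5, 71.7, 86.0, 89.5 and 145 in S. The highest value was in 35990 and the lowest of NS and S were in the SM2 animals. The log2 fold change in S vs C was -0.83 (SE 0.72) for Lum, and -1.18 (SE 0.78) without 36016. For Bgn it was 0.13 (SE 0.31, edgeR adjusted p = 0.842), and 0.11 (SE 0.34) without 36016.

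Sparc, osteonectin, a collagen-binding matricellular protein, lay between 13 and 28.0 CPM in C (median 14.9), at 10.2, 12.2, 14.3, 14.8 and 17.0 in NS, and at 12.6, 15.6, 19.7, 31.8 and 243 in S. Animals 36016 and 35990 were above all others, and the remaining S animals overlapped C. Its log2 fold change in S vs C was 1.91 (SE 0.61, edgeR adjusted p = 0.0792) and, without 36016, 0.22 (SE 0.26, edgeR adjusted p = 0.670). Thbs1, thrombospondin 1, an activator of latent TGF-beta, lay between 5.00 and 18.9 CPM in C (median 7.54), at 3.06, 3.28, 3.83, 7.60 and 9.58 in NS, and at 4.26, 4.39, 5.67, 17.4 and 297 in S. Only 36016 was above the highest C animal, and 2 S animals were below all of C. S vs C gave a log2 fold change of 2.84 (SE 0.93, edgeR adjusted p = 0.0838) with all animals, -0.19 (SE 0.48, edgeR adjusted p = 0.858) without 36016, and -0.92 (SE 0.46, edgeR adjusted p = 0.297) without 36016 and 35990. The calls of Sparc and Thbs1 were both lost without 35975, 35998, 36001 or 36007 of C as well. Ecm1, an inhibitor of TGF-beta activation in liver, lay between 76.7 and 112 CPM in S and 84.2 and 155 in C, with 31.5 in NS animal 10865. Thbs2 had at most 3 counts in C and 2.25 CPM in 36016.

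Lysyl oxidases cross-link collagen and elastin, and 2 of the 3 tested were called in S vs C, 0 without 36016. Lox, the founding enzyme, lay between 0.144 and 0.689 CPM in C (median 0.299), at 0, 0, 0.197, 0.378 and 0.383 in NS, and at 0.174, 0.191, 0.365, 0.741 and 42.0 in S. It was near the limit of detection in all animals but 36016, with 1 to 7 counts in C and 224 in 36016. This gave a log2 fold change in S vs C of 4.46 (SE 1.26, edgeR adjusted p = 0.0558) with all animals and -0.11 (SE 0.75, edgeR adjusted p = 0.951) without 36016; the call was also lost without 35975, 36001 or 36007. Loxl1, needed for elastic fibres, lay between 0.313 and 1.33 CPM in C (median 0.638), at 0.296, 0.485, 0.504, 0.510 and 0.678 in NS, and at 0.927, 1.10, 1.22, 1.91 and 16.0 in S. All S animals were above all NS animals, with 3 to 5 counts in NS, and 3 S animals lay inside the range of C. Its log2 fold change was 2.45 (SE 0.70, edgeR adjusted p = 0.0590) in S vs C, and 0.79 (SE 0.46, edgeR adjusted p = 0.342) without 36016; without 35975 or 36007 it was also not called. Loxl2, which acts on type IV collagen, had 35.8 CPM in 36016 and 6.79 to 18.8 in the other animals, with a log2 fold change of 0.74 (SE 0.30) in S vs C, or 0.42 (SE 0.26) without 36016.

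**Figure D4:**
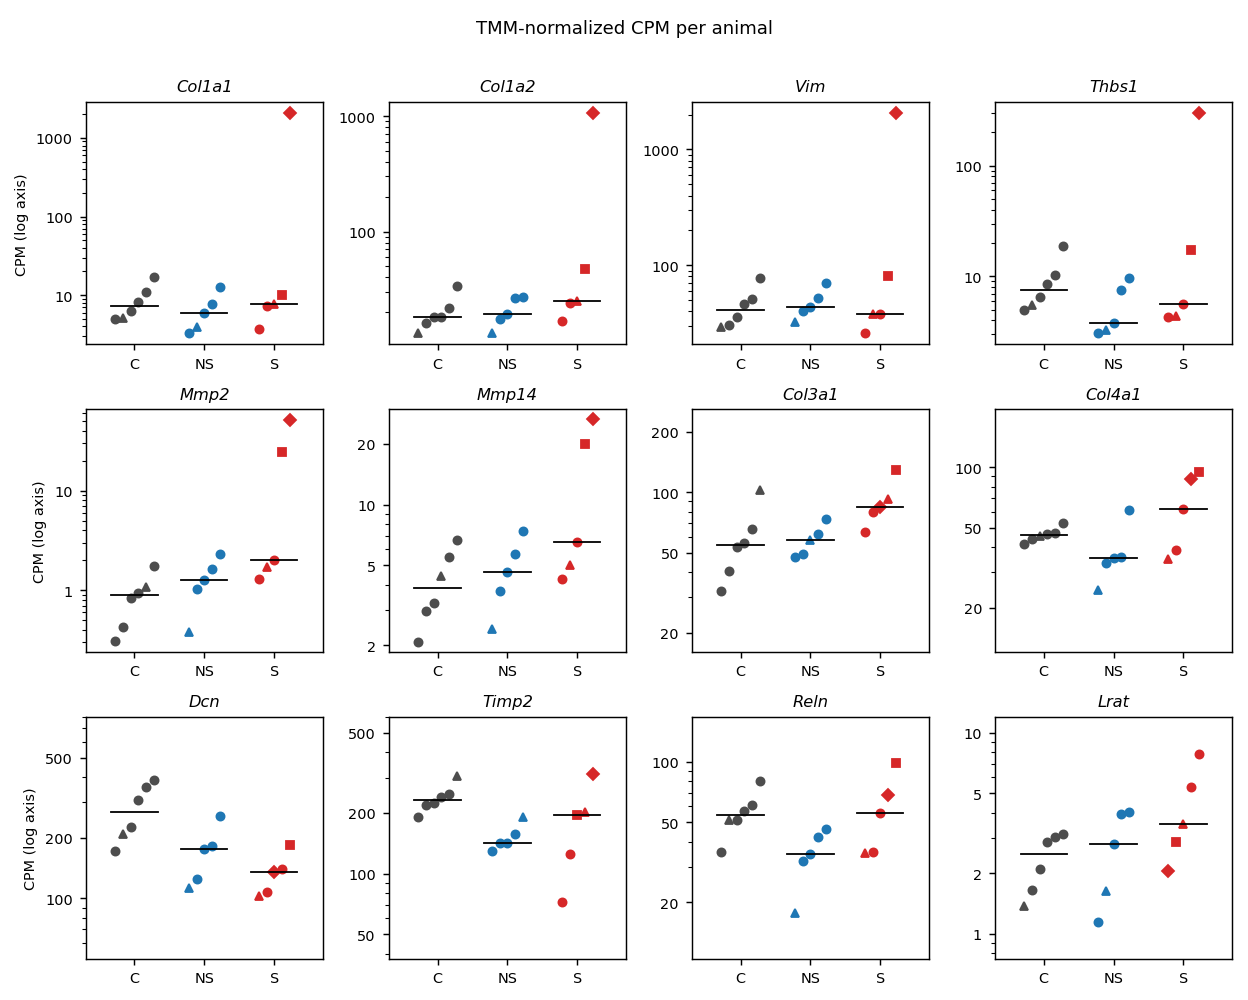
CPM per animal on log axes for 12 genes; triangles are SM2 animals, the diamond is S animal 36016, the square is S animal 35990, circles are other BW animals, and lines are group medians. Only 36016 is far above the rest for Col1a1, Col1a2, Vim and Thbs1, both 36016 and 35990 are for Mmp2 and Mmp14, and Dcn is low in S.

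Matrix turnover depends on metalloproteinases and their tissue inhibitors, and 2 of the 5 such genes, both proteinases, were called higher in S vs C, 1 without 36016. Mmp2, gelatinase A, which cleaves type IV collagen and denatured collagens, lay between 0.313 and 1.77 CPM in C (median 0.890), at 0.378, 1.02, 1.28, 1.63 and 2.30 in NS, and at 1.30, 1.71, 2.01, 24.7 and 50.9 in S. Animals 35990 and 36016 were far above all others, and the other S animals lay inside the range of NS. For S vs C, the log2 fold change was 4.10 (SE 0.86, edgeR adjusted p = 0.0222), without 36016 it was 3.01 (SE 0.75, edgeR adjusted p = 0.0646), and without 36016 and 35990 it was 0.87 (SE 0.54, edgeR adjusted p = 0.408). Mmp14, the membrane proteinase that activates pro-MMP2 together with TIMP2, lay between 2.08 and 6.64 CPM in C (median 3.82), at 2.39, 3.70, 4.61, 5.70 and 7.40 in NS, and at 4.26, 4.99, 6.54, 20.1 and 26.5 in S. The same animals, 35990 and 36016, stood out, and the other S animals lay inside the range of C. Its log2 fold change in S vs C was 1.59 (SE 0.46, edgeR adjusted p = 0.0599), without 36016 it was 1.13 (SE 0.44, edgeR adjusted p = 0.162), and without both it was 0.36 (SE 0.38, edgeR adjusted p = 0.645). Without 35990 alone, or without 35975, 36001 or 36007 of C, Mmp14 was not called either, with 1.35 (SE 0.48) in the first case.

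Of the inhibitors, none was called between the groups by edgeR in the fit of all animals, and DESeq2 called Timp3 higher in S vs NS. With sex as a covariate and in males alone, edgeR called Timp1 lower in S vs C and Timp3 higher in S vs NS. Timp1, the inhibitor induced in activated stellate cells, lay between 1.25 and 4.58 CPM in C (median 2.98), at 1.26, 2.76, 3.53, 3.64 and 4.34 in NS, and at 0.487, 0.938, 1.11, 3.23 and 6.29 in S. The highest value was that of 35990, and 36016, 35982 and 10880 were below all C animals. The log2 fold change in S vs C was -0.32 (SE 0.53, edgeR adjusted p = 0.752), without 36016 it was -0.13 (SE 0.54), and with sex as a covariate it was -2.14. Timp2, the inhibitor that also serves in the activation of pro-MMP2, lay between 192 and 307 CPM in C (median 233), at 129, 141, 141, 157 and 192 in NS, and at 72.3, 125, 195, 203 and 314 in S. In 4 of 5 NS animals and 2 of 5 S animals it was below all of C, and in 36016 it was the highest of all. Its log2 fold change was -0.65 (SE 0.26, edgeR adjusted p = 0.560) in NS vs C and -0.39 (SE 0.26, edgeR adjusted p = 0.370) in S vs C, or -0.68 (SE 0.24, edgeR adjusted p = 0.131) without 36016. Timp3, the matrix-bound inhibitor, had 100 CPM in 36016 and at most 24.5 elsewhere, and was at 3.53 to 14.8 in NS and 10.4 to 24.5 in C.

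Contractile and filament genes mark myofibroblasts and smooth muscle, and 1 of the 4 tested, Vim, was called in S vs C, 0 without 36016. Acta2, alpha smooth muscle actin, lay between 4.53 and 25.5 CPM in C (median 7.65), at 1.89, 4.34, 8.49, 10.4 and 15.6 in NS, and at 4.82, 8.89, 10.7, 19.0 and 45.8 in S. Animal 36016 was the highest, the chow animal 36001 came next, and the rest of S overlapped C and NS. S vs C gave a log2 fold change of 0.85 (SE 0.58, edgeR adjusted p = 0.384), and without 36016 it was 0.15 (SE 0.55, edgeR adjusted p = 0.904). Tagln, transgelin, an actin-binding protein of smooth muscle, lay between 6.10 and 22.1 CPM in C (median 13.3), at 6.43, 7.50, 13.8, 14.6 and 17.1 in NS, and at 4.82, 13.1, 16.1, 16.9 and 59.7 in S. Apart from 36016, the S animals lay below the highest C animal. Its log2 fold change in S vs C was 0.72 (SE 0.47, edgeR adjusted p = 0.353), and without 36016 it was -0.06 (SE 0.37). In the fit with sex as a covariate and in males alone, edgeR called Tagln higher.

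Vim, vimentin, the intermediate filament of mesenchymal cells, lay between 29.1 and 78.3 CPM in C (median 41.0), at 32.3, 40.6, 43.4, 52.0 and 70.1 in NS, and at 25.8, 37.6, 38.0, 81.2 and 2053 in S. The value of 36016 was 2053, 35990 was just above the highest C animal, and the other S animals were below the C median. In S vs C the log2 fold change was 3.30 (SE 0.93, edgeR adjusted p = 0.0553), without 36016 it was 0.02 (SE 0.32, edgeR adjusted p = 0.982), and the call was also lost without 35975 or 36007 of C. Des, desmin, an intermediate filament of muscle and of rodent stellate cells, lay between 0 and 2.37 CPM in C (median 0.523), at 0, 0.136, 0.197, 1.15 and 1.33 in NS, and at 0, 0, 0.375, 1.66 and 2.00 in S. It had at most 25 counts in any animal, and the groups overlapped throughout. This gave a log2 fold change in S vs C of 0.08 (SE 0.99, edgeR adjusted p = 0.973), and of 0.24 (SE 1.05) without 36016.

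Of the stellate cell and pericyte genes, 0 of 7 were called in S vs C, NS vs C or S vs NS by edgeR or by DESeq2. At an unadjusted p under 0.05, edgeR gave 1 higher in S vs C, 2 lower in NS vs C and 1 higher in S vs NS. The shares of all genes there were 13.1, 2.97 and 6.19%. Lrat, the enzyme that forms retinyl esters in stellate cells, lay between 1.38 and 3.13 CPM in C (median 2.48), at 1.15, 1.64, 2.79, 3.93 and 4.05 in NS, and at 2.06, 2.86, 3.53, 5.37 and 7.85 in S. Animals 35955 and 35982 were above all C and NS animals, 35990 lay inside the range of C, and 36016 had the lowest value of S. The edgeR log2 fold change in S vs C was 0.89 (SE 0.40, edgeR adjusted p = 0.185), and without 36016 it was 1.06 (SE 0.39, edgeR adjusted p = 0.149). Reln, reelin, a secreted protein of stellate cells in liver, lay between 35.5 and 80.3 CPM in C (median 54.3), at 17.8, 32.0, 34.7, 42.3 and 46.2 in NS, and at 35.1, 35.4, 55.6, 68.5 and 98.8 in S. All NS animals were below the C median, 3 of them below all of C, while S spread to both sides of C. Its log2 fold change was -0.70 (SE 0.29, edgeR adjusted p = 0.575) in NS vs C, 0.07 (SE 0.28, edgeR adjusted p = 0.915) in S vs C and 0.76 (SE 0.30, edgeR adjusted p = 0.391) in S vs NS; without 36016 the last 2 were 0.01 (SE 0.30) and 0.71 (SE 0.31).

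Pdgfrb, the platelet-derived growth factor receptor of pericytes and stellate cells, lay between 3.05 and 8.23 CPM in C (median 4.91), at 3.12, 4.41, 5.23, 5.94 and 7.90 in NS, and at 3.34, 5.60, 7.85, 11.4 and 12.9 in S. The higher S values, 12.9 in 35990 and 11.4 in 36016, were above all C and NS animals. The log2 fold change in S vs C was 0.66 (SE 0.33, edgeR adjusted p = 0.230), or 0.52 (SE 0.35) without 36016. Cxcl12, a chemokine of liver stromal and sinusoidal cells, lay between 46.3 and 79.7 CPM in C (median 65.2), at 62.3, 68.1, 68.9, 87.4 and 91.7 in NS, and at 59.1, 61.2, 78.9, 87.1 and 91.6 in S. In S the animals 36016 and 35990 had the lowest values, the reverse of their place for most other genes. Its log2 fold change was 0.27 (SE 0.17) in both S vs C and NS vs C (edgeR adjusted p = 0.337 and 0.699), and 0.34 (SE 0.17) in S vs C without 36016. Pdgfra, the alpha receptor, lay between 7.76 and 12.0 CPM in C and between 3.15 and 7.90 in NS, with a log2 fold change of -0.66 (SE 0.28, edgeR adjusted p = 0.594) in NS vs C. Hand2, a transcription factor of stellate cells, ranged from 3.03 to 17.3 CPM and Rgs5, a pericyte gene, from 6.58 to 44.1, with overlap of all groups.

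Ligands and receptors of the TGF-beta family drive matrix production, and 0 of the 4 tested were called in S vs C by edgeR. At an unadjusted p under 0.05, 2 were higher, against 13.1% of all genes, and 1 without 36016, against 10.8%. DESeq2 called both receptors. Tgfb1, the main ligand in liver fibrosis, lay between 11.1 and 24.1 CPM in C (median 17.2), at 11.0, 12.9, 15.3, 16.4 and 20.9 in NS, and at 10.5, 13.9, 17.8, 20.2 and 33.9 in S. Only 35990 was above the range of C, and the SM2 animals had the lowest value of each group. S vs C gave a log2 fold change of 0.12 (SE 0.26, edgeR adjusted p = 0.817) with all animals and 0.15 (SE 0.28) without 36016. Tgfb2, a related ligand, lay between 0 and 4.38 CPM in C (median 1.28), at 0, 0.893, 0.970, 1.18 and 2.44 in NS, and at 0.487, 1.83, 2.59, 2.67 and 10.9 in S. Animal 36016 was the highest and the SM2 animals the lowest, with 0 counts in 10876 and 10865 and 4 in 10880. For S vs C, the log2 fold change was 1.11 (SE 0.85, edgeR adjusted p = 0.441), and without 36016 it was 0.18 (SE 0.84).

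Tgfbr2, the receptor that binds the ligand, lay between 1.77 and 5.02 CPM in C (median 4.18), at 1.76, 2.68, 4.12, 5.97 and 6.42 in NS, and at 4.26, 5.32, 7.88, 8.15 and 13 in S. Of the S animals 4 were above all C animals and 3 above all NS animals. Its log2 fold change in S vs C was 1.01 (SE 0.36, edgeR adjusted p = 0.106), 1.00 (SE 0.39, edgeR adjusted p = 0.165) without 36016 and 0.62 (SE 0.40, edgeR adjusted p = 0.430) without 36016 and 35990. Tgfbr1, the signalling partner receptor, had 17.3 CPM in 36016 and 0.578 to 2.59 in the other animals; with sex as a covariate and in males alone edgeR called it higher in S vs C.

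The stocks were compared as well. Against the 13 BW animals, and with diet and steatosis group in the fit, the 3 SM2 animals had 5 of the 48 genes called lower (Lum, Bgn, Tgfb2, Col14a1 and Timp3) and 1 higher (Eln), against 4.93 and 5.91% of all genes. The median log2 difference was -0.72 over the 48 genes and -0.04 over all genes, and 6 of the 48 were above 0. Without C animal 10876 the median was -1.10, and without 36016 and 35990, which are BW animals, it was -0.40 with 12 of 48 above 0. Each group holds 1 SM2 animal, so the stock contrast rests on 3 animals, 1 on chow and 2 on HFD. Without NS animal 10865, and likewise without NS animal 35930, 3 genes were called, against 6.92 and 10.4% of all genes in either direction.

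Lum lay between 0.126 and 0.590 CPM in the SM2 animals and between 2.57 and 13 in the BW animals. No SM2 animal overlapped a BW animal, and the log2 difference was -4.13 (SE 0.49, edgeR adjusted p = 3.49e-05). Tgfb2 had 0 to 0.487 CPM in SM2 and 0.893 to 10.9 in BW animals, also with no overlap, and a log2 difference of -4.12 (SE 0.91, edgeR adjusted p = 0.00590), which rests on at most 4 counts per SM2 animal. Both were called in all 21 alternative settings run. Bgn lay between 21.8 and 55.1 CPM in SM2 and 55.0 and 145 in BW animals, and 12 of 13 BW animals were above all SM2 animals. Its log2 difference was -1.17 (SE 0.24, edgeR adjusted p = 0.00349), and without 10865 it was -0.95 and not called.

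Col14a1, a collagen on the surface of fibrils, lay between 13.1 and 23.6 CPM in SM2 and 20.4 and 69.0 in BW animals, and 11 of 13 BW animals were above all SM2 animals. The log2 difference of -1.02 (SE 0.31, edgeR adjusted p = 0.0333) was close to the fold limit, and the call was lost without 35990 (-0.88) and without any 1 of 10876, 35972, 36001, 10865 and 35930 (-0.95 to -0.98). Timp3 lay between 3.53 and 10.4 CPM in SM2 and 6.02 and 100 in BW animals, with a log2 difference of -1.49 (SE 0.55, edgeR adjusted p = 0.0792). It was not called without any 1 of 10876, 10865, 35930, 35937 and 10880, with log2 differences from -1.81 to -1.21. Eln lay between 1.26 and 4.02 CPM in SM2 and 0.185 and 2.1 in BW animals and overlapped; its log2 difference of 1.17 (SE 0.46, edgeR adjusted p = 0.0975) was lost as a call in 12 of 21 alternative settings, with 0.92 without 10880.

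**Figure D5:**
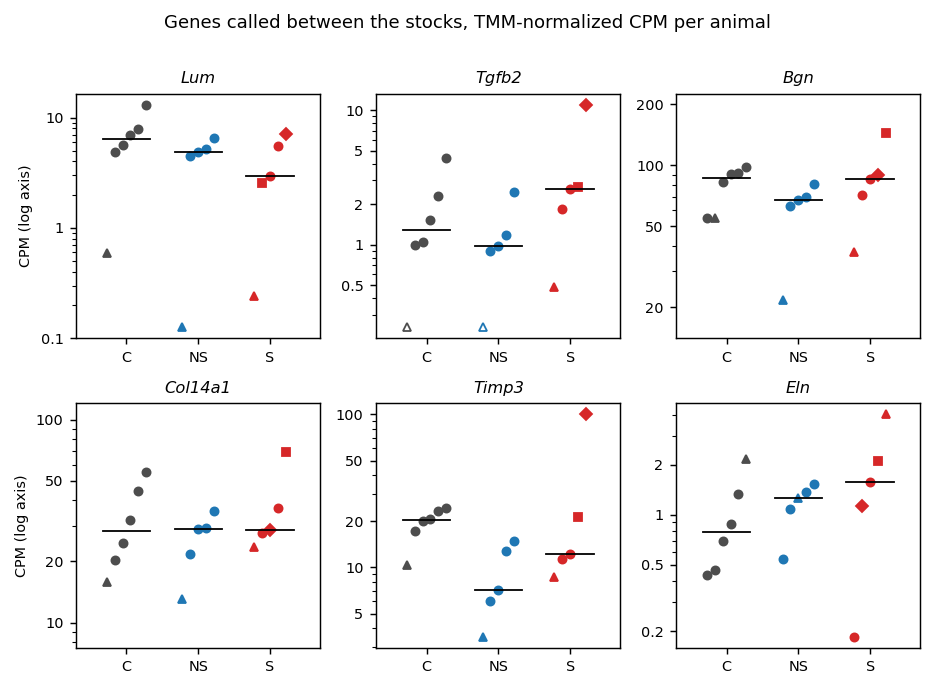
CPM per animal on log axes for the 6 genes called between the stocks; triangles are SM2 animals, open triangles mark a count of 0 drawn at the foot of the axis, the diamond is 36016, the square is 35990, circles are other BW animals, and lines are group medians. In each group the SM2 animal has the lowest Lum and Tgfb2.

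Across the 16 animals, 10 gene pairs chosen for known partnership were correlated on log2 (CPM + 1) with group means removed, with 100000 permutations within groups, two-sided, and Benjamini-Hochberg adjustment over the 10. The chains of type I collagen, Col1a1 and Col1a2, had a Pearson r of 0.98 (permutation p = 5e-05, adjusted 0.0005) and a Spearman rho of 0.91 (permutation p = 0.00025, adjusted 0.0025). The r was 0.81 without the 2 animals farthest from the median, 36016 and 35982, 0.84 without 36016 and 0.99 in BW animals alone. Col4a1 and Col4a2, the chains of type IV collagen, had an r of 0.88 (permutation p = 0.00108, adjusted 0.0027) and a rho of 0.86 (permutation p = 0.00051, adjusted 0.0025), with 0.84 without the farthest 2 and 0.91 in BW animals.

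The smooth muscle genes Acta2 and Tagln had an r of 0.88 (permutation p = 0.0001, adjusted 0.0005) and a rho of 0.82 (permutation p = 0.00075, adjusted 0.0025), with 0.80 without the farthest 2 and 0.94 in BW animals. Col1a1 and Acta2 had an r of 0.70 (permutation p = 0.00044, adjusted 0.00147) and a rho of 0.60 (permutation p = 0.00608, adjusted 0.0152), with 0.73 without the farthest 2, 0.77 without 36016 and 0.74 in BW animals. These 4 pairs had an adjusted p of r under 0.05 in all 5 settings run. So the chains of type I and of type IV collagen, and the smooth muscle genes, moved together among livers of the same group, also without 36016.

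The other 6 pairs had an adjusted p of r above 0.05. For Dcn and Lum, r was 0.54 (permutation p = 0.048, adjusted 0.096) and rho 0.48 (permutation p = 0.0794, adjusted 0.159), with 0.46 without the farthest 2 and 0.22 in BW animals. Col1a1 and Col3a1 had an r of 0.02 (permutation p = 0.900, adjusted 0.968) and a rho of 0.11 (permutation p = 0.682, adjusted 0.758), with 0.06 without the farthest 2 and 0.12 in BW animals. Col6a1 and Col6a2 had an r of 0.25 (permutation p = 0.400, adjusted 0.572) and a rho of 0.34 (permutation p = 0.217, adjusted 0.310), with 0.21 without the farthest 2, 0.57 without 36016 and 0.26 in BW animals. In these pairs of fibril and filament chains, 36016 was high for 1 gene and not for the other.

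Lrat and Reln, both of stellate cells, had an r of 0.02 (permutation p = 0.95, adjusted 0.968) and a rho of 0.14 (permutation p = 0.644, adjusted 0.758), with -0.00 without the farthest 2 and -0.23 in BW animals. Col1a1 and Lrat had an r of -0.47 (permutation p = 0.171, adjusted 0.285) and a rho of -0.41 (permutation p = 0.103, adjusted 0.172), with -0.19 without the farthest 2 and -0.60 in BW animals. Col1a1 and Timp1 had an r of -0.10 (permutation p = 0.968, adjusted 0.968) and a rho of 0.11 (permutation p = 0.775, adjusted 0.775), with 0.48 without the farthest 2, 0.53 without 36016 and -0.30 in BW animals.

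Outside the listed genes, the 5 of 10280 genes whose values were most like those of Col1a1 over the 16 animals were Flnc (r = 0.984), Twist2 (0.978), Cav1 (0.978), Cdh11 (0.977) and Gria3 (0.975). All 5 were among the 108 genes that were high in 36016, and without that animal their r with Col1a1 was 0.79, 0.85, 0.69, 0.69 and 0.68. These values are a description, since the genes were picked for them.

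Some of the genes are neighbours in the genome. All 49 were matched by symbol to the RefSeq gene table of assembly HU_Pman_BW_mat_3.1, another assembly than the one the authors aligned to, and 5 pairs of them are next to each other with 0 genes between: Col5a2 and Col3a1, Col4a2 and Col4a1, Dcn and Lum, Col15a1 and Tgfbr1, and Col6a1 and Col6a2. Of these, Col5a2 (61.9 CPM), Col6a2 (69.4 CPM) and Tgfbr1 (17.3 CPM) were at their highest in 36016. Their neighbours Col3a1 (84.8 CPM) and Col6a1 (13.5 CPM) were inside the range of the other animals there, and Col15a1 was at 0. Both Col4a2 (61.0 CPM) and Col4a1 (87.5 CPM) were higher in 36016 than in all other animals but 35990. Both Dcn (135 CPM) and Lum (7.13 CPM) were inside the range of the other animals.

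Coordination was measured with the composite correlation index Pc, which correlates, for each gene, its r values with all other genes in 1 group with those in another; values near 0 mean that the partners of the gene differ between the groups. Pc was first computed on the counts as deposited, which were not scaled to library size. In S vs C the median Pc was then 0.052 over the 49 genes (jackknife SE over animals 0.156) and 0.201 over all genes. Of the 49, 2 were below -0.2, against 2.60% of all genes. In NS vs C the median was 0.115 (SE 0.068) against 0.102, with 0 of 49 below -0.2 and 2.92% of all genes. In S vs NS it was 0.190 (SE 0.171) against 0.174, with 1 below -0.2, Col5a3 at -0.465, and 3.53% of all genes. Without 36016 the median of S vs C was 0.180 and that of S vs NS 0.239. The SE of the index in S vs C was larger than the distance between the medians. Pc depended on how counts were scaled. On CPM by total count the medians of the 49 genes and of all genes were 0.050 and 0.105 for S vs C. For NS vs C they were 0.118 and 0.154, and for S vs NS 0.156 and 0.166. In each comparison 2 of the 49 were then below -0.2, against 6.05, 5.73 and 7.32% of all genes.

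A wider list of 191 further matrix and stellate genes, of which 178 were in the table and 162 were tested, was read for comparison. In S vs C 15 were called higher and 0 lower by edgeR, against 3.09 and 0.965% of all genes, and 11 and 0 by DESeq2, against 3.20 and 1.16%, with no adjusted p from DESeq2 for 23 of the 162. Of the 162, 10 reached 0.5 CPM in S alone, against 4.01% of all genes, which leaves little room for a lower call; Mmp13, with 0 counts in C, was the 1 of them among the 15. At an unadjusted p under 0.05, 34 were higher and 3 lower in edgeR, against 13.1 and 10.7% of all genes. Without 36016, 4 of 154 were called higher (Mmp12, Fbln2, Ccn1 and Ihh), against 1.35%, with 23 higher and 7 lower at that level, against 10.8 and 9.65%. Without 36016 and 35990, edgeR called 0 of 153, against 0.993% higher and 0.562% lower, with 8 higher and 10 lower at an unadjusted p under 0.05, against 9.38 and 9.04%. As for the 48 genes, the number also moved with chow animals: it was 6 without 35975, 8 without 36001 and 4 without 36007, where 1.20, 1.32 and 1.01% of all genes were called higher. Leaving animals out for this list was chosen after seeing the data. Mmp12, macrophage elastase, had 99.7 CPM in 35990, at most 1.13 in the other animals and 0 to 3 counts in C. Ccn1, a matricellular protein induced by stretch and growth factors, lay between 1.11 and 33.5 CPM in C (median 5.05), between 2.91 and 20.2 in NS, and between 35.4 and 116 in S. All 5 S animals were above all other animals for Ccn1, with a log2 fold change of 2.80 (SE 0.68, edgeR adjusted p = 0.0360) in S vs C and 2.76 (SE 0.72, edgeR adjusted p = 0.0683) without 36016. Without 36016 and 35990 it was 2.27 (SE 0.74, edgeR adjusted p = 0.135).

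Smad7, an inhibitor of TGF-beta signalling, lay between 2.77 and 7.78 CPM in C and 5.24 and 32.3 in S, with a log2 fold change of 1.44 (SE 0.37, edgeR adjusted p = 0.0418) in S vs C and 1.07 (SE 0.34, edgeR adjusted p = 0.106) without 36016. Fbln1, fibulin 1, had 38.9 CPM in 36016 and at most 1.72 elsewhere, with a log2 fold change in S vs C of 3.33 (SE 0.86, edgeR adjusted p = 0.0439) and, without 36016, 0.73 (SE 0.43). Fbln2, fibulin 2, had 46.4 CPM in 35990; its log2 fold change in S vs C was 2.04 (SE 0.55, edgeR adjusted p = 0.0497), and 2.23 (SE 0.56, edgeR adjusted p = 0.0648) without 36016. It rested on 35990, without which it was 0.83 (SE 0.36, edgeR adjusted p = 0.182); the other S animals had 3.34 to 8.28 CPM and C at most 6.38. Ihh, the hedgehog ligand, lay between 0.665 and 4.30 CPM in C, 2.55 and 9.08 in NS, and 2.44 and 11.6 in S, with a log2 fold change of 1.58 (SE 0.50, edgeR adjusted p = 0.0793) in S vs C, 1.79 (SE 0.49, edgeR adjusted p = 0.0760) without 36016, 1.70 (SE 0.54, edgeR adjusted p = 0.129) without 36016 and 35990, and 1.40 (SE 0.50, edgeR adjusted p = 0.511) in NS vs C. Ccn2, the current symbol of Ctgf, a target of TGF-beta signalling, had 81.5 CPM in 36016 and lay between 4.13 and 28.7 in C; its log2 fold change in S vs C was 1.38 (SE 0.75, edgeR adjusted p = 0.265), 0.66 (SE 0.74) without 36016 and -0.36 (SE 0.77) without 36016 and 35990.

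For the wider list 0 genes were called by edgeR in NS vs C and 1 by DESeq2, against 0.0712 and 0.419% of all genes; DESeq2 gave no adjusted p for 48 of the 162. There were 5 higher and 5 lower at an unadjusted p under 0.05, against 5.32 and 2.97%. In S vs NS 0 were called by edgeR and 2 by DESeq2, against 0.00791 and 0.404% of all genes, with no adjusted p from DESeq2 for 41. At an unadjusted p under 0.05, 28 were higher and 2 lower there, against 6.19 and 4.74%, and without 36016 14 and 1, against 4.00 and 3.06%. Without 36016 and 35990, 4 of 153 were higher and 1 lower, against 2.91 and 2.71%. Between the stocks, 9 were called higher and 20 lower in SM2, against 5.91 and 4.93% of all genes. Without NS animal 10865 these were 4 and 6, and without S animal 10880 9 and 6, against 6.92 and 7.71% of all genes in either direction. Those with the smallest p in each direction were P4ha3, Col6a5, Dpt and Spon2, higher in SM2, and P3h2, Mmp10, Itgb5 and Crtap, lower. Of these, Col6a5 had 10.9 CPM in 10876 and 7.94 in 10865. In 10880 it had 2.19, inside the range of the BW animals, 1.30 to 3.40. Dpt had at most 10 counts in any SM2 animal. P3h2, a prolyl hydroxylase of basement membrane collagen, lay between 1.71 and 3.74 CPM in SM2 animals and between 5.63 and 29.2 in BW animals, with no overlap and a log2 difference of -2.73 (SE 0.39, edgeR adjusted p = 0.000194). P4ha3, a prolyl hydroxylase subunit, had 6.40 CPM in 10876, 7.69 in 10865, 1.34 in 10880 and at most 1.31 in BW animals, with a log2 difference of 3.33 (SE 0.56, edgeR adjusted p = 0.000726).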

How the data were processed

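Counts came from the table deposited with the series, which the authors made with STAR 2.7.2 and featureCounts of Subread (version not given) on assembly HU_Pman_2.1. The library kit was directional, and the strand setting of the counting step is not given in the sources used here. No reads were processed again. The table held 16910 genes and 16 animals, of which 2251 genes had 0 counts throughout. The filter asked for 0.5 CPM or more in any animal and kept 12639 genes. TMM factors, dispersions and quasi-likelihood tests were from edgeR 4.0.16 (limma 3.58.1, R 4.3.3), in 1 fit with a mean per group; the stocks were compared in a fit with group and stock. DESeq2 1.42.0 was the alternative tool. CPM values are TMM-normalized. Pc was computed on the counts as deposited, without scaling, and again on CPM by total count. The SE of a log2 fold change is its absolute value divided by the square root of F. P-values are two-sided, and Benjamini-Hochberg adjustment was over all genes tested in a comparison. Correlations used log2 (CPM + 1) with group means removed and 100000 permutations within groups. Python 3.11.15 with numpy 2.4.6, pandas 2.3.3, scipy 1.17.1 and matplotlib 3.10.9 was used for the rest. The genes and the lists were chosen with earlier results of these data known. Leaving out 36016 and 35990 together was chosen after seeing the data.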

Additional observations from a re-analysis of the deposited data

Results flagged for a closer look

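Within each group, each value of 161 sets of values was compared with the others, and 31 sets held a value that stood apart. The limit used marks about 1 in 20 sets of normally distributed values. The values here were not logged, and many of the genes were picked for their results in these data. The number marked can therefore not be read against that rate. In S animal 36016 (14 values), high values were those of Col1a1 (2057 CPM), Col1a2 (1059), Vim (2053), Thbs1 (297), Sparc (243), Lamc1 (65.3), Col5a2 (61.9), Tagln (59.7), Lox (42.0), Fbln1 (38.9), Loxl1 (16.0) and Tgfb2 (10.9), the sum of skeletal muscle markers (119 CPM) and the number of genes far above the other libraries (108). In S animal 35990 they were Mmp12 (99.7 CPM), Fbln2 (46.4) and Mmp13 (1.81). In C animal 10876 they were Sparc (28.0 CPM), Col6a5 (10.9), P4ha3 (6.40), Spon2 (2.26) and Dpt (0.984), and Itgb5 was low there (49.5). In NS animal 10865 they were P4ha3 (7.69 CPM) and the number of genes far above the other libraries (4). In S animal 10880 they were Spon2 (2.07 CPM) and Dpt (0.609). In C animal 36001 they were Acta2 (25.5 CPM) and Des (2.37), in C animal 35972 Ccn1 (33.5), and in C animal 35975 Ccn2 (28.7). The animals 10876, 10865 and 10880 are those of the SM2 stock. The cause was not tested.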

How the results depend on the processing

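Besides the analysis described, each was repeated in alternative settings, and each animal was left out in turn (ranges are lowest to highest). For the gene pairs, 36016 was the only animal left out. In S vs C 12 of the 48 genes were called, 2 to 14 with 1 animal left out, 17 with sex as a covariate, 17 in males alone, 1 without 36016 and 35990, and 4 at an adjusted p under 0.05; their median log2 fold change, 0.66, was 0.24 to 0.79 with 1 animal left out and -0.07 without both. In NS vs C these were 0 to 0 and -0.20 to -0.07. In S vs NS 0 to 0 were called, but 12 with sex as a covariate, 12 in males alone and 4 by DESeq2, and the median was 0.44 to 0.88, or 0.14 without both. Between the stocks 3 to 9 were called, and 11 with no fold limit, against 2752 of all 12639 genes with no fold limit. The median between the stocks was -1.10 to -0.55, and -0.40 without both. With 1 animal left out the log2 fold change in S vs C was -0.28 to 5.89 for Col1a1, -0.19 to 3.19 for Thbs1 and -0.11 to 4.79 for Lox, negative without 36016 in each; the sign also turned without both for Col1a1 (-0.49), Sparc (-0.10), Thbs1 (-0.92) and Vim (-0.42). The median Pc ran from -0.012 to 0.180 in S vs C, 0.073 to 0.139 in NS vs C and 0.042 to 0.239 in S vs NS. Of the gene pairs, 4 had an adjusted p under 0.05 without 36016. In the wider list 15 were called in S vs C, 4 to 19 with 1 animal left out, 11 by DESeq2 and 0 without both. Of 18 calls, 13 kept their sign and 2, Lum and Tgfb2 between the stocks, were made in every setting with a p-value. Of 101 results named without a call, 84 were never called. Groups held 5 or 6 animals, all females were in S, and the cause of the high values in 36016 was not tested. No paired analysis was possible because each animal was sampled once.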
